A study of Mus musculus with 16 samples.

Results

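The Zic genes encode transcription factors with C2H2 zinc fingers, related to the GLIS proteins and to the GLI proteins, which act at the end of the Hedgehog pathway. Zic1 and Zic4 lie side by side on one chromosome and Zic2 and Zic5 on another, and all 4 are known for roles in the neural plate, the neural crest or the cerebellum. In mouse embryonic stem cells (ESCs), the Zic2 protein has been found at enhancers together with the NuRD chromatin complex. The 4 genes Zic1, Zic2, Zic4 and Zic5 were taken by name and followed through a time course of ERK stimulation, out of 20972 genes with a named probe on the array. They and the gene lists below were chosen with earlier results of these data known. Shares and ranks among all genes are therefore set beside them as a description. Of the 4, Zic1, Zic2 and Zic5 were among the 15660 genes tested, and Zic4 was not, because its brightest probe was well above background on too few arrays.

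The cells were E14tg2a ESCs, a mouse line grown on gelatin in serum and LIF, which carried a constitutively active c-Raf fusion that 4-hydroxytamoxifen (4OHT) switches on. ERK is the last kinase of the chain that c-Raf sets off. Cells received 250 nM PD173074, an inhibitor of FGF receptors, for 24 hours, and then 250 nM 4OHT with the inhibitor still present for 30 minutes (30m), 1, 2, 4, 8 or 24 hours (1h to 24h). The 0h cells received the inhibitor without 4OHT, and the DMSO cells received vehicle only. Each of the 8 groups had 2 arrays, hybridised with labelled RNA from whole cultures. The labels do not say whether these came from separate cultures, so p-values measure the spread between 2 samples that may be technical. The 4h samples are described once as 4 minutes and otherwise as 4 hours, and were taken as 4 hours. Cells without the fusion that received 4OHT were not analysed here, so an effect of 4OHT itself and one of c-Raf cannot be told apart. No group had the inhibitor alone for as long as the stimulated cells. Differences from 0h therefore cannot be told apart from those of longer inhibitor exposure and culture, above all at 24h.

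The values belonging to the samples were settled before any comparison. Each scanner file held the values of exactly 1 column of the deposited value table, but for 8 of the 16 arrays that column's heading was another sample than the one the file was attached to. The column headings were followed, and with them each replicate number is 1 slide. The differences of Zic2 and Zic5 at 2h, 4h and 24h are also given with the samples as attached, where none passed the test and those at 2h and 4h turned sign. The share of spots well above background was 54.9% to 59.9% over the arrays of slide 1 and 61.4% to 67.2% over those of slide 2, and the small number of arrays limits the precision. All 8 ESC markers (Pou5f1, Sox2, Nanog, Esrrb, Zfp42, Utf1, Dppa5a and Tdgf1) were well above background on every array.

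Levels are on a log2 scale relative to the 75th percentile of the processed signals of the same array, so that 0 is a spot as bright as that percentile, and levels of different probes are not set against each other. A gene is said to rise or fall only where its adjusted p from limma was under 0.05.

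Zic2 and Zic5 fell together at 24h of stimulation, while their values at 2h and 4h lay above those at 0h on both slides without passing the test. Between 0h and 24h, 2 of the 3 tested members fell, Zic2 by 3.90 and Zic5 by 2.96 on the log2 scale, where 13.0% of all tested genes fell and 23.7% changed in either direction. Zic1 passed the test at no time without the replicate number as a block and at 4h with it, and Zic4 was not measured above background in any group as a whole. In RNA from whole cultures, fewer cells that express a gene and less RNA per cell cannot be told apart.

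**Figure D1:**
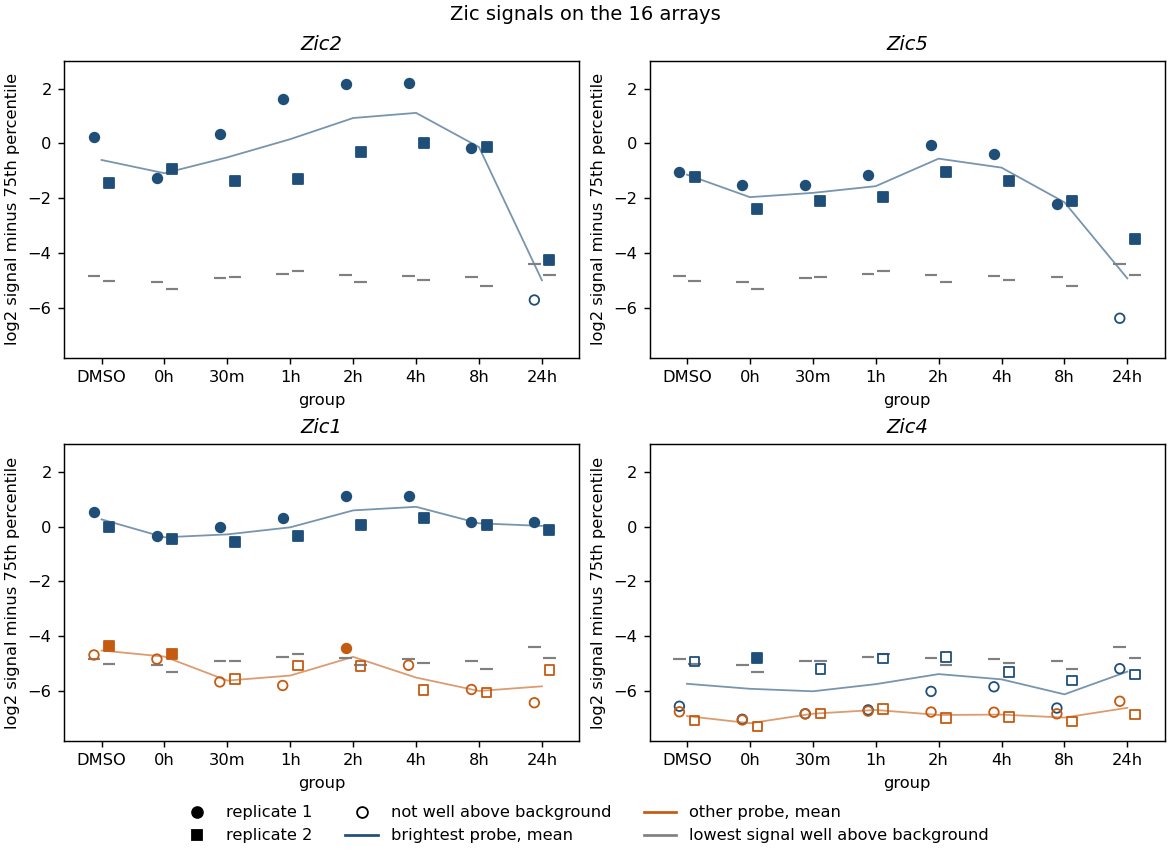
Signal of each Zic probe (log2 minus the array's 75th percentile) in the 8 groups, with circles for replicate 1, squares for replicate 2, open symbols where the spot was not well above background, lines through the group means and grey bars at each array's lowest signal called well above background. Zic2 and Zic5 have their lowest values at 24h, where replicate 1 is not well above background, and both Zic4 probes sit at the background in nearly every sample.

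Zic2 was measured with 1 probe, A_55_P1962523. On replicate 1 its level was 0.23 in DMSO, -1.25 at 0h, 0.34 at 30m, 1.61 at 1h, 2.16 at 2h, 2.20 at 4h, -0.15 at 8h and -5.70 at 24h. On replicate 2 it was -1.43 in DMSO, -0.92 at 0h, -1.35 at 30m, -1.30 at 1h, -0.30 at 2h, 0.02 at 4h, -0.12 at 8h and -4.26 at 24h. Both 24h arrays lay below all other 14 arrays. The 24h array of replicate 1 was not well above background, so its value of -5.70 is a reading in the noise and the 24h mean rests on 1 measured array.

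From 0h to 24h, Zic2 fell by 3.90 ± 1.16 (SE, n = 2 arrays per group; 95% interval -6.47 to -1.32), a 14.9-fold decrease, with an adjusted p of 0.0339. The difference was -4.45 within slide 1 and -3.35 within slide 2. The fit with the replicate number as a block gave an adjusted p of 0.00996, and 21.3% of all tested genes fell in it. With dim signals of all genes set to their array's lowest signal called well above background, an alternative chosen after seeing the data, the difference was -3.24, a 9.44-fold decrease, and the adjusted p was 0.056. With background-corrected (normexp) and quantile-normalized signals it was -1.88, with an adjusted p of 0.187, in a fit that called 4080 genes. The call was lost without any 1 of the 4 arrays compared, with an adjusted p of 0.206 without 24h replicate 1, the array in the noise, 0.0504 without 24h replicate 2, 0.105 without 0h replicate 1 and 0.133 without 0h replicate 2. With the samples as attached the difference was -3.25 with an adjusted p of 0.53.

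Against DMSO cells, 2 of the 3 tested members fell at 24h, beside 4.78% of all tested genes that fell. Zic2 fell by 4.38 ± 1.16 (SE), a 20.8-fold decrease with an adjusted p of 0.037, which became 0.0541 with the dim array at its background limit, 0.0568 with median scaling and 0.0529 with no filter on dim probes. The fit with the block gave an adjusted p of 0.0101, and 13.5% of all tested genes fell in it. The normexp signals gave -2.18 (adjusted p = 0.177), and a fit of only these 2 groups gave an adjusted p of 0.101. It was lost without any 1 of 6 arrays, those of DMSO, 0h and 24h, with adjusted p from 0.0502 without 24h replicate 2 to 0.262 without 24h replicate 1. With the dim signals of all genes so raised, 2 tested genes had a larger fall than Zic2 in that comparison. Between 8h and 24h, 1 of the 3 tested members fell, beside 3.59% of all tested genes. That member was Zic2, which fell by 4.85 ± 1.16 (SE), a 28.8-fold decrease with an adjusted p of 0.0284. With the dim array at its limit the difference was -4.19, with an adjusted p of 0.0387. The fit with the block gave an adjusted p of 0.00692, and 10.2% of all tested genes fell in it. The normexp signals gave -2.60 (adjusted p = 0.12), and a fit of only these 2 groups gave an adjusted p of 0.171. That call was lost without 24h replicate 1 (adjusted p = 0.2), 8h replicate 1 (0.0911) or 8h replicate 2 (0.102). No tested gene had a larger fall from 8h to 24h under either treatment of dim signals. These ranks take the size of the difference alone, and only 0.766% of genes had a larger SD than Zic2. No rank was taken with the normexp signals. With the samples as attached, the difference from DMSO was -3.97 (adjusted p = 0.438) and that from 8h was -2.04 (adjusted p = 1), in comparisons that called 1.61% and 0.101% of all genes.

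The higher Zic2 means at 2h and 4h did not pass the test, and the differences were larger on slide 1. At 4h the difference from 0h was 2.20 ± 1.16 (SE; 95% interval -0.38 to 4.77), with 3.45 within slide 1 and 0.94 within slide 2, and an adjusted p of 0.351. At 2h it was 2.01 ± 1.16 (SE; adjusted p = 0.966), with 3.41 within slide 1 and 0.61 within slide 2. The differences with the samples as attached were -0.92 at 4h and -1.34 at 2h. Both 2h and both 4h arrays lay above both 0h arrays, which in the 2h comparison held upward for 16.5% of all tested genes and in the 4h comparison for 22.7%. With the inhibitor alone, 0h differed from DMSO by -0.48 ± 1.16 (SE; 95% interval -3.06 to 2.09; adjusted p = 0.913), and the arrays overlapped.

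Zic2 differed more between replicates than nearly all genes. At 1h replicate 1 was 2.91 above replicate 2, a gap that 0.0702% of tested genes exceeded in size in that group, where the median gap was 0.22. The gap was 2.46 at 2h, 2.18 at 4h, 1.69 at 30m and 1.67 in DMSO, but -0.34 at 0h, -0.03 at 8h and -1.44 at 24h, where replicate 1 was not well above background. The SD that the fit gave Zic2 over all groups was 1.16, against 0.23 for the median gene, and 0.766% of genes had a larger one. The slides also differed in the share of spots above background, as given above, and the part of that in the Zic2 gaps was not tested.

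Zic5, the neighbour of Zic2 on its chromosome and a gene known for neural crest formation, was measured with 1 probe, A_55_P2003693. On replicate 1 its level was -1.05 in DMSO, -1.53 at 0h, -1.51 at 30m, -1.16 at 1h, -0.05 at 2h, -0.39 at 4h, -2.21 at 8h and -6.36 at 24h. On replicate 2 it was -1.23 in DMSO, -2.38 at 0h, -2.08 at 30m, -1.95 at 1h, -1.05 at 2h, -1.37 at 4h, -2.08 at 8h and -3.46 at 24h. Again both 24h arrays were the lowest of the 16 and the 24h array of replicate 1 was not well above background, while the 2h arrays were the highest of their slides.

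The RefSeq sequence upstream of Zic5 (build GRCm38.p6) is shown because Zic5 is the member that fell for which an upstream sequence was at hand; 3 of the 4 members had an entry, and Zic2 had none. The windows of Zic1 and Zic4 lie within the annotated span of Zic4 and are not described. The line gives the 250 bases before the annotated gene start, chr14:122465659-122465908 on the minus strand, 5′ to 3′ on the gene's strand, with CpG dinucleotides in capitals.
Zic5: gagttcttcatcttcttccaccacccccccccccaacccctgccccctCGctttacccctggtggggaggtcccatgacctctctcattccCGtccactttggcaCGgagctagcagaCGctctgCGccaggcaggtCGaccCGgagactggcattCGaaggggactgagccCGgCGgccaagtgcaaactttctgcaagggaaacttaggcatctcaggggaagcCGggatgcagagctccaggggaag
This window holds 11 CpG dinucleotides at a GC content of 62.4%, more CpG than 64.4% of the 32841 upstream windows of this length, whose medians were 6 CpG and 52.4% GC. On both strands, the GC box GGGCGG (in 32.7% of all windows), the E-box CACGTG (6.0%), CCAAT (33.9%), the ETS core CGGAAG (13.6%), the AP-1 site TGANTCA (6.8%) and CCTGCTG (8.4%), a part of ZIC binding sites, had no match upstream of Zic5. The absence of a match speaks for this window alone.

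From 0h to 24h, Zic5 fell by 2.96 ± 0.78 (SE, n = 2 arrays per group; 95% interval -4.69 to -1.23), a 7.77-fold decrease with an adjusted p of 0.0201. The slides differed in its size, with -4.84 within slide 1 and -1.08 within slide 2. The fit with the block gave an adjusted p of 0.0162, and 21.3% of all tested genes fell in it. With the dim array at its background limit the difference was -1.97, a 3.91-fold decrease with an adjusted p of 0.0129. With the normexp signals it was -1.32, with an adjusted p of 0.0213, and a fit of only these 2 groups gave an adjusted p of 0.148. Without 24h replicate 1 the adjusted p was 0.126 and the difference -1.51, and without 0h replicate 1 it was 0.121. With the samples as attached the difference was -1.75 with an adjusted p of 0.596.

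Against DMSO at 24h, Zic5 fell by 3.78 ± 0.78 (SE), a 13.7-fold decrease with an adjusted p of 0.0132, and the difference with the dim array at its limit was -2.79 with an adjusted p of 0.0052. With the normexp signals it was -1.73 (adjusted p = 0.0114), and a fit of only these 2 groups gave an adjusted p of 0.158. The fit with the block gave an adjusted p of 0.00913, and 13.5% of all tested genes fell in it. The call was lost without DMSO replicate 1 (adjusted p = 0.0882), DMSO replicate 2 (0.0536) or 24h replicate 1 (0.0732). With the samples as attached that difference was -2.15, with an adjusted p of 0.519. From 8h to 24h it was -2.77 ± 0.78 (SE) and just missed the threshold, with an adjusted p of 0.0536. With the replicate number as a block it passed, with an adjusted p of 0.0355 in a fit where 10.2% of all tested genes fell, as it did with the dim array at its limit (-1.78, adjusted p = 0.0416) and without 24h replicate 2 (-4.22, adjusted p = 0.0025).

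Before 24h no Zic5 comparison passed the test. The difference from 0h was 1.40 ± 0.78 (SE; adjusted p = 0.949) at 2h and 1.07 ± 0.78 (SE; adjusted p = 0.517) at 4h. Both slides gave similar sizes, with 1.47 and 1.33 at 2h and 1.13 and 1.01 at 4h. Under the attached samples they were -0.18 at 2h and -0.92 at 4h. At 8h the level was back among the 0h values, with -0.19 ± 0.78 (SE) from 0h. Between 0h and DMSO the difference was -0.82 ± 0.78 (SE; adjusted p = 0.679), and both 0h arrays were below both DMSO arrays, as held for 23.5% of all tested genes.

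**Figure D2:**
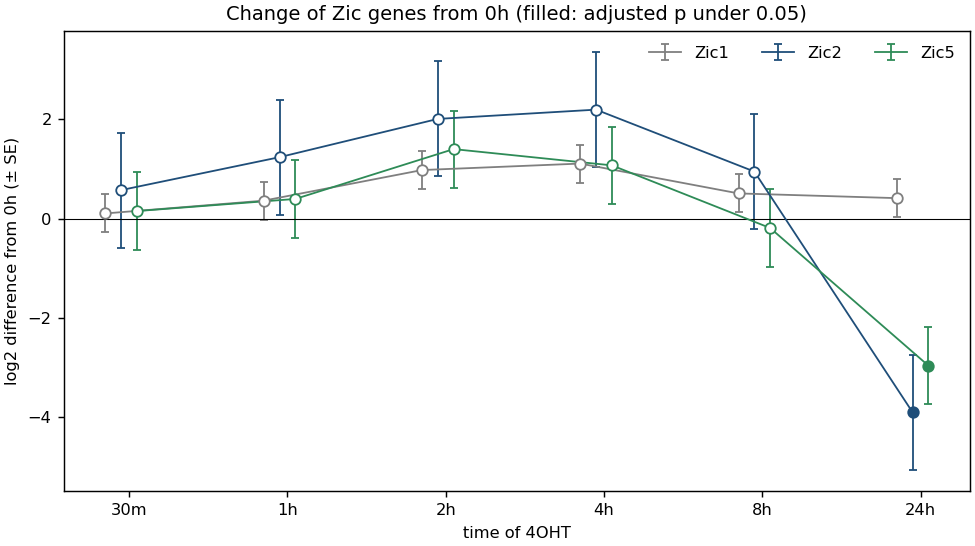
Difference from 0h (log2, ± SE, n = 2 arrays per group) of Zic1, Zic2 and Zic5 at each time of 4OHT, with filled points where the adjusted p was under 0.05. Zic2 and Zic5 drop to -3.90 and -2.96 at 24h, while Zic1 is at 0.42 there and at 1.11 at 4h.

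Zic1, which acts in the dorsal neural tube and the cerebellum, had 2 probes, of which 1 was measured throughout. On replicate 1 the brighter one, A_55_P2009774, read 0.53 in DMSO, -0.34 at 0h, -0.02 at 30m, 0.31 at 1h, 1.10 at 2h, 1.12 at 4h, 0.18 at 8h and 0.16 at 24h. On replicate 2 it read -0.00 in DMSO, -0.45 at 0h, -0.55 at 30m, -0.36 at 1h, 0.07 at 2h, 0.32 at 4h, 0.06 at 8h and -0.11 at 24h. It was well above background on all 16 arrays, with its highest group mean at 4h and its lowest at 0h, and every pair of neighbours in the order of group means overlapped.

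Zic1 was not called in any of the 12 comparisons without the block. Its difference from 0h was 0.98 ± 0.38 (SE; adjusted p = 0.722) at 2h and 1.11 ± 0.38 (SE; adjusted p = 0.151) at 4h. With the replicate number as a block, the 4h difference passed the test with an adjusted p of 0.0113, in a fit where 7.58% of all tested genes rose in that comparison. Without the block, 3.18% changed in either direction. At 24h it stood 0.42 ± 0.38 (SE; adjusted p = 0.51) from 0h, with a 95% interval of -0.44 to 1.27. Between 0h and DMSO it was -0.65 ± 0.38 (SE; adjusted p = 0.428).

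The dimmer Zic1 probe, A_51_P194230, was well above background on 3 of 16 arrays (2h replicate 1, DMSO replicate 2 and 0h replicate 2). Its group means ran from -4.51 in DMSO to -5.99 at 8h, and at 30m, 1h, 4h, 8h and 24h neither array was well above background. Its differences from 0h are therefore readings in the noise, and no sign was read from them. Which probe reads the Zic1 mRNA was not tested, and the Zic1 levels, correlations and main calls rest on the brighter one.

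Zic4, the neighbour of Zic1 and a gene known from cerebellar malformation, was not measured above background in these cells as far as its 2 probes show. The brighter one, A_55_P2152637, was well above background on 1 of 16 arrays, 0h replicate 2, at -4.80. Its other readings ran from -7.02 to -4.74, with replicate 1 below replicate 2 by 0.54 to 2.22 in 7 of the 8 groups, and no order of the groups was read from them. The other probe, A_52_P502228, was well above background on 0 of 16 arrays. In a fit without the filter, the adjusted p of Zic4 was between 0.664 and 1 in the 12 comparisons.

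At the early times no tested member was called, and hardly any gene was. At 30m and at 1h limma called 0 of the 3 members and 0 (0%) of the 15660 genes, with 0 of the 3 members at an unadjusted p under 0.05 at either time. At 2h it called 0.115% of all genes and 0 members, with Zic1 at an unadjusted p under 0.05, and at 8h 6.74% of all genes and 0 members. The comparison of 0h with DMSO called 3.50% of genes and 0 members, that of 8h with DMSO 6.44% and 0, that of 4h with 2h 0.00639% and 0, and that of 8h with 4h 1.12% and 0. In these 4, as at 8h against 0h, 0 members had an unadjusted p under 0.05, and the block called no member in any of them. With the samples as attached, the 24h comparison with 0h called 2.15% of all genes and 0 members.

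Across arrays, Zic2 and Zic5 followed each other. Pearson's r between their levels was 0.897 over 16 arrays, 0.956 within slide 1 and 0.778 within slide 2 (8 arrays each), and 0.73 over the 14 arrays without 24h. The points share their arrays, scaling and slides, and the 24h arrays lie far from the others. Zic1 had r of 0.552 with Zic2 and 0.397 with Zic5 over 16 arrays, and 0.893 and 0.843 over the 14 without 24h. Within slide 1 and slide 2, with 24h included, Zic1 had r of 0.557 and 0.294 with Zic2. With Zic5 these were 0.445 and 0.417. The brighter Zic1 probe read higher on replicate 1 than on replicate 2 in every group, and the part of this in the pooled r was not tested. Over the pooled arrays it ran with the other members up to 8h and apart from them at 24h.

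**Figure D3:**
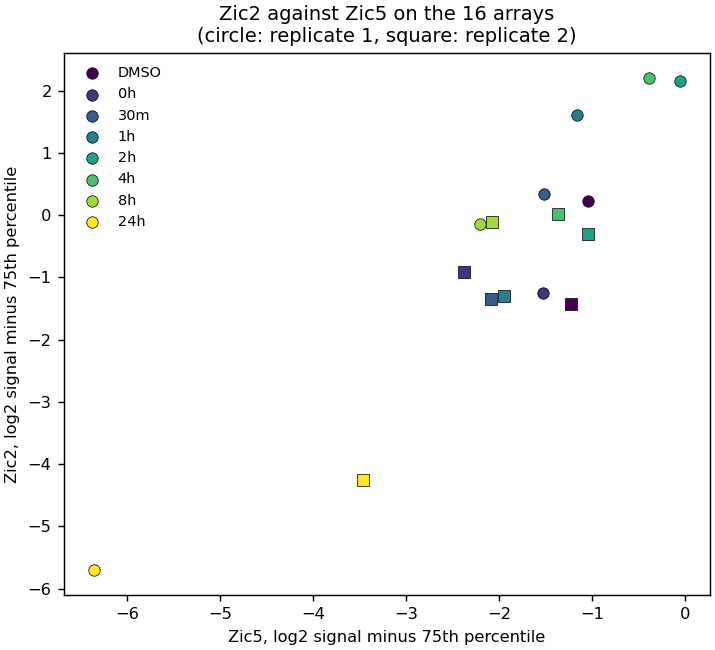
Zic2 level against Zic5 level (both log2 minus the array's 75th percentile) on the 16 arrays, coloured by group, with circles for replicate 1 and squares for replicate 2. Both 24h arrays lie at the lower left, and the replicate 1 arrays of 1h, 2h and 4h lie at the top.

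The tested genes with the pattern most like each member over the 16 arrays were found by Pearson's r and given as a description. For Zic2 they were Snx17 (r = 0.945), Ppp2r1a (0.942), Trim28 (0.942), Nrde2 (0.941) and Tubb5 (0.94). These moved far less than Zic2: Trim28, with the widest range of the 5, lay between 6.06 and 7.63. For Zic5 they were Ndufv3 (0.936), Mybpc3 (0.934), Shf (0.929), Pwwp2a (0.916) and Cenpp (0.915). Mybpc3 had the widest range, from -3.83 to -0.20, and fell from 0h to 24h by 2.37 ± 0.52 (SE; adjusted p = 0.00828). For Zic1 they were Ppp2r2a (0.952), Ddx20 (0.937), Dgke (0.929, over 15 arrays), Champ1 (0.924) and Cdca5 (0.922).

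Of the 6 related GLI and GLIS genes, all tested, 3 fell and 0 rose from 0h to 24h, beside 13.0% of all tested genes that fell. Gli2, an effector of Hedgehog signalling, fell by 3.84 ± 0.93 (SE; adjusted p = 0.0137), with 1 of the 2 arrays at 24h well above background. Glis2 fell by 0.92 ± 0.18 (SE; adjusted p = 0.00438) and Gli1, itself a Hedgehog target, by 0.69 ± 0.20 (SE; adjusted p = 0.0281). In 0h against DMSO, Glis2 rose by 0.83 ± 0.18 (SE; adjusted p = 0.0334).

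Of 13 tested Hedgehog pathway genes, 1 rose and 5 fell from 0h to 24h, beside 10.7% of all tested genes that rose and 13.0% that fell, with a median of -0.12 beside -0.01 for all tested genes. Hhip, which binds Hedgehog ligands and is a target of the pathway, rose from DMSO to 0h by 3.92 ± 0.55 (SE; adjusted p = 0.00741) and fell from 0h to 24h by 5.67 ± 0.55 (SE; adjusted p = 0.000162), with 1 of 2 arrays above background at 24h. Ptch1, the Hedgehog receptor, fell by 1.85 ± 0.22 (SE; adjusted p = 0.000374), the co-receptor Cdon by 1.00 and the ligand Ihh by 0.94 (1 of 2 arrays well above background at 24h). Sufu, an inhibitor of GLI proteins, rose by 0.53 ± 0.16 (SE; adjusted p = 0.0346).

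Of 16 tested neural plate and neural crest genes, 1 rose and 8 fell from 0h to 24h, beside 10.7% and 13.0% of all tested genes. The median was -1.26, beside -0.01 for all tested genes. The transcription factor genes Rax, of the eye field, fell by 4.00 ± 0.84 (SE; adjusted p = 0.00681; 1 of 2 arrays well above background at 24h) and Hesx1, of the anterior neural plate, by 3.83 ± 0.93 (SE; adjusted p = 0.0137). Snai2, of the neural crest, fell by 2.21 ± 0.43 (SE; adjusted p = 0.00463; 1 of 2 arrays well above background at 24h). Neither 24h array was well above background for Olig3, which was at least 1.75-fold lower (adjusted p = 0.0281), a bound taken from each 24h array's lowest signal called well above background. Msx1, of the neural plate border, rose by 2.23 ± 0.43 (SE; adjusted p = 0.00453).

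Against DMSO, 1 of these 16 genes rose at 24h and 1 fell, beside 6.56% of all tested genes that rose and 4.78% that fell. Both counts were near those shares. The median was -0.16, beside -0.04 for all tested genes. Msx1 rose by 2.14 ± 0.43 (SE; adjusted p = 0.0122), and Pax6, of the neural tube, fell by 1.95 ± 0.28 (SE; adjusted p = 0.0026; 1 of 2 arrays well above background at 24h). From DMSO to 0h, 2 of the 16 rose and 0 fell, beside 2.22% of all tested genes that rose. With the replicate block 5 of the 16 rose, beside 8.35% of all. Hesx1 rose by 3.96 ± 0.93 (SE; adjusted p = 0.0475), and Olig3 was at least 2.20-fold higher (adjusted p = 0.0432). The comparisons with DMSO and with 0h share the 24h arrays or the 0h arrays. Zic2 and Zic5 fell against both controls, which was not particular to them. Of 13 naive pluripotency genes, 8 fell at 24h against DMSO and 11 against 0h.

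Of the naive pluripotency genes, 11 of 13 fell from 0h to 24h and 0 rose, with a median of -2.37. Among all tested genes 13.0% fell and 10.7% rose in that comparison, with a median of -0.01. Prdm14 fell by 4.66 ± 0.86 (SE; adjusted p = 0.00362), Nanog by 4.64 ± 0.80 (SE; adjusted p = 0.00252), Klf4 by 3.47 ± 0.58 (SE; adjusted p = 0.00214) and Tbx3 fell by 3.21 ± 0.41 (SE; adjusted p = 0.000608). In the list for the formative state and early epiblast, 5 of 13 rose and 2 fell, with a median of 1.00. The 2 that fell were near the 13.0% of all tested genes. Gbx2 rose by 4.58 ± 0.76 (SE; adjusted p = 0.00204) and Pou3f1 by 3.49 ± 0.49 (SE; adjusted p = 0.000916), Tcf15 by 2.14 and Utf1 by 1.78, while Sall2 fell by 2.23 ± 0.44 (SE; adjusted p = 0.00475) and Foxd3 by 1.60 ± 0.30 (SE; adjusted p = 0.00405). Against DMSO, 1 of these 13 formative and early epiblast genes rose at 24h and 3 fell, beside 6.56% and 4.78% of all tested genes. The median there was 0.14. From DMSO to 0h, 0 of them rose and 2 fell, beside 2.22% and 1.28% of all tested genes, with a median of -1.54.

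Of the 12 tested genes for NuRD subunits, 1 rose and 1 fell from 0h to 24h, beside the 10.7% and 13.0% of all tested genes. With the replicate block 3 rose and 3 fell, beside 18.3% and 21.3% of all tested genes in that fit. Rbbp7, a histone-binding subunit, rose by 0.60 ± 0.13 (SE; adjusted p = 0.00941) and Hdac2, a deacetylase, fell by 0.76 ± 0.17 (SE; adjusted p = 0.00944), with a median of 0.05 over the list. Of 9 tested genes that read ERK activity, 8 rose and 0 fell, beside the same 10.7% and 13.0%, with a median of 3.97. Phlda1 rose by 6.16, Etv4 by 4.96, the phosphatase gene Dusp4 by 5.67 ± 0.71 (SE; adjusted p = 0.000514) and the Sprouty gene Spry4 by 4.94 ± 0.38 (SE; adjusted p = 5.24e-05). At 4h, where Zic2 and Zic5 had their higher values, 7 of these 9 had risen, beside 1.44% of all tested genes.

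**Figure D4:**
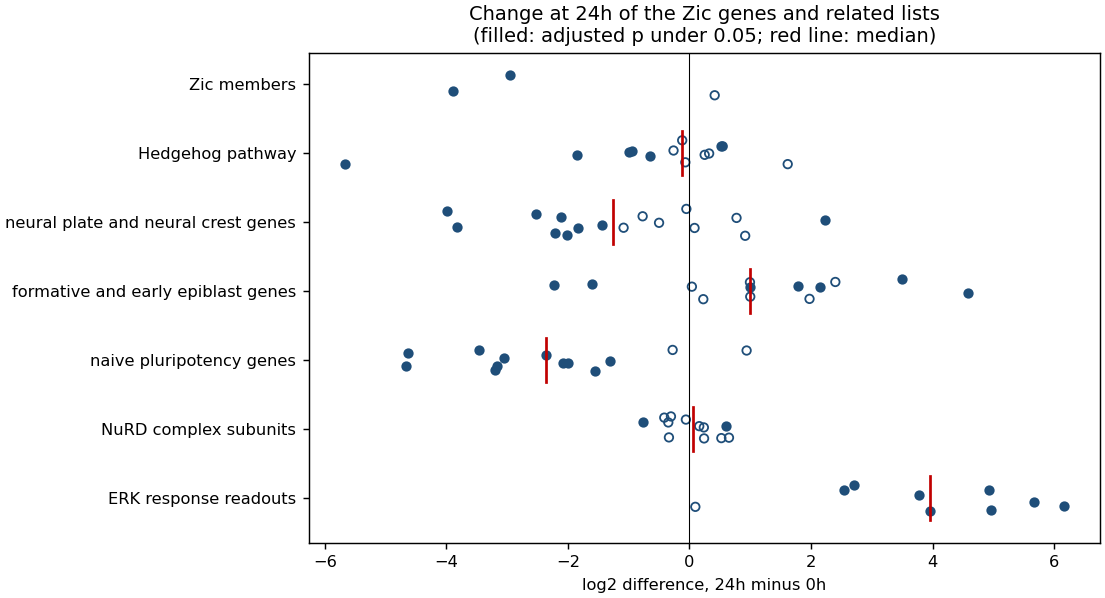
Difference between 24h and 0h (log2) of the tested Zic genes and of the genes in each related list, 1 point per gene, filled where the adjusted p was under 0.05, with a red line at each list's median. Naive pluripotency genes have a median of -2.37, ERK readouts one of 3.97 and NuRD subunits one of 0.05.

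Markers of other cell types differed between 0h and 24h in both directions. The summed scaled signal of 8 neural progenitor markers, as multiples of the array's 75th percentile, was 5.67 to 7.25 in DMSO and 10.8 to 14.6 at 0h. It was 9.24 to 10.3 at 4h and 4.07 to 4.69 at 24h, with Olig2 not well above background on any array. Most of the 0h sum was Tubb3, with a mean level of 3.22 at 0h and 0.41 at 24h. Nes stood at 1.17 and 1.05 and Sox1 at -1.74 and -1.66. Of the 6 tested markers 3 fell and 0 rose, beside 13.0% of all tested genes that fell. The sum of 4 neural crest markers was 0.75 to 0.97 at 0h and 0.45 to 0.57 at 24h. That of 7 primitive endoderm markers was 8.95 to 12.3 in DMSO, 31.0 to 31.6 at 0h and 11.3 to 13.0 at 24h. Most of that sum was Lama1, a laminin gene, with a mean level of 4.95 at 0h and 3.29 at 24h. The defining gene Gata6 went the other way and rose, from -4.09 to 0.67, while Sox17 stood at -4.39 and -3.56 and did not pass the test. That of 4 fibroblast markers was 2.96 to 3.03 at 0h and 13.6 to 14.3 at 24h. Most of it was Thy1, which rose from 1.43 to 3.77 and was the 1 of the 4 called, while Col1a1 (-3.56 and -4.30) and Dcn (-4.19 and -5.29) did not pass the test. Of 6 mesoderm markers, whose sum was 9.11 to 10.1 at 0h and 9.93 to 10.9 at 24h, Hand1 rose from -5.12 to -0.48 and Mesp1 from -6.32 to -2.91, and Mixl1 was above background on 0 of 16 arrays. Most of that sum was Kdr, with a mean level of 3.23 at both times, and Evx1 stood at -2.81 and -2.75. T was well above background on 2 of 16 arrays. Neither 0h array was well above background for Mesp1. Of 4 trophectoderm markers, whose sum was 0.362 to 0.573 at 0h, 1.52 to 2.11 at 4h and 0.579 to 1.10 at 24h, Cdx2 rose from -6.09, not well above background, to -1.55 at 24h, and Elf5 was above background on 0 of 16 arrays. Gata3 went the other way, from -2.22 at 0h to -2.78 at 24h, and Eomes stood at -2.33 and -2.06. Neither passed the test. The part of these cell types in the fall of Zic2 and Zic5 was not tested.

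The nearest genes beside the Zic pairs with a probe on the array were read for comparison. Beside Zic2 and Zic5, Clybl fell from 0h to 24h by 1.10 ± 0.20 (SE; adjusted p = 0.00318), while Pcca differed by -0.55 ± 0.19 (SE; adjusted p = 0.0585) and Ggact by -0.24 ± 0.21 (SE; adjusted p = 0.485). With the block Pcca fell as well, with an adjusted p of 0.0218. Beside Zic1 and Zic4, Tbc1d2b differed by -0.04 ± 0.22, Adamts7 by 0.13 ± 0.47 and Plscr1 by -0.18 ± 0.23 (SE), and none passed the test. Gm5089 and Plscr5 were not tested because too few arrays were well above background.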

How the data were processed

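RNA of 16 samples was measured on 1-colour Agilent arrays. The spot intensities are the authors' deposited Feature Extraction 11.0.1.1 processed signals, corrected for background within each array per the file headers, which name genome build mm9; the labels give Cy5, but the files hold the green channel. The deposited value table, whose making is not given in the sources used here, matched each scanner file in 100% of spots (tolerance 0.6%; next best column at most 4.99%), and its headings set the samples.

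Signals were divided by each array's 75th percentile and taken to log2, control spots and outlier spots (147 to 240 an array; 0 saturated) left out. Of 55681 probes, 27656 had 1 gene symbol and 28025 none (platform annotation, symbols through RefSeq GRCm38.p6); the brightest probe stood for a gene. Tested genes had, in at least 1 group, both arrays well above background. limma 3.58.1 (R 4.3.3) fitted 8 group means to 16 arrays (8 residual degrees of freedom), with Benjamini-Hochberg adjustment over 15660 genes in each comparison and a threshold of 0.05; the method was tested on simulated data. Same-numbered samples of different groups deviated together (r of 0.329 to 0.659, over 0.1 in 28 of 28 pairs of groups), so the number, which is the slide, was also fitted as a block.

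Named were the 4 members, up to 4 called genes a direction of each list, the nearest 2 genes with a probe on each side of the pairs, and the 5 genes most like each member. Members and lists were chosen with earlier results of these data known. Alternatives were normexp with quantile normalization, quantile or median scaling, other filters, outlier spots kept, the mean over probes, the value table, the block, the attached samples, fits of 2 groups, and each array left out. One gene of the lists is not reported here.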

Additional observations from a re-analysis of the deposited data

How the results depend on the processing

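Values are log2 differences, first group minus second, with Zic1, Zic2 and Zic5 in 12 comparisons each and the count of members called in each. Keeping outlier spots, quantile normalization of the processed signals and the value table's values changed no direction and no call. With 2 arrays a group and signals at 24h close to background, the size of the falls of Zic2 and Zic5 is uncertain. The alternatives with the dimmer Zic1 probe and with dim signals raised to the background limit were chosen after seeing the data. Where no reason is given, the cause of a change was not tested.

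Normexp with quantile normalization called 1 member in 24h vs 0h, 1 in 24h vs DMSO and 0 in 24h vs 8h, with Zic2 at -1.88, -2.18 and -2.60 and Zic5 at -1.32, -1.73 and -1.12, and called 4080, 2008 and 1555 of all genes there. Median scaling called 1 member in 24h vs DMSO, with Zic2 at -4.40, and no filter on dim probes 1, with Zic2 at -4.38. Requiring a signal well above background on all 16 arrays removed Zic2 and Zic5 and so left 0 members in 24h vs 0h, 24h vs DMSO and 24h vs 8h. Fits of only the 2 groups called 1 member in 24h vs 0h (Zic5 at -2.96 lost), 0 in 24h vs DMSO (Zic2 -4.38, Zic5 -3.78) and 0 in 24h vs 8h (Zic2 -4.85), on fewer samples. Of all 15660 genes these fits called 1530, 1 and 0. With dim signals raised to the background limit, 1 member was called in 24h vs 0h (Zic2 -3.24 lost), 1 in 24h vs DMSO (Zic2 -3.72 lost) and 2 in 24h vs 8h (Zic5 -1.78 gained).

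With the replicate number as a block, 1 member was called in 4h vs 0h (Zic1 at 1.11, higher) and 2 in 24h vs 8h (Zic5 at -2.77 gained). The block changed no other call of a member. Of the 84 counts of called genes over the related lists, 45 moved by over 1.5 times with the block and 20 with median scaling.

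For Zic1, the mean of both probes turned the sign at 30m (-0.38), 1h (-0.16), 8h (-0.37) and 24h (-0.33) against 0h, in 4h vs 2h (-0.31) and in 24h vs 8h (0.04). Its dimmer probe, whose readings lie in the noise, gave -0.87 at 30m, -0.69 at 1h, -0.01 at 2h, -0.76 at 4h, -1.25 at 8h and -1.08 at 24h against 0h, -0.75 in 4h vs 2h and 0.17 in 24h vs 8h.

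With each file's attached sample in place of the column headings, 0 members were called in 24h vs 0h (Zic2 -3.25, Zic5 -1.75), 24h vs DMSO (Zic2 -3.97, Zic5 -2.15) and 24h vs 8h (Zic2 -2.04), where 2.15%, 1.61% and 0.101% of all genes were called. The sign turned against 0h for Zic1, Zic2 and Zic5 at 30m (-0.31, -0.38 and -0.90), 1h (-0.16, -2.52 and -2.81), 2h (-0.36, -1.34 and -0.18) and 4h (-0.46, -0.92 and -0.92), for Zic1 and Zic2 at 8h (-0.64 and -1.21) and for Zic1 at 24h (-0.63). It also turned for Zic2 in 8h vs DMSO (-1.93) and for Zic1 in 4h vs 2h (-0.10) and 24h vs 8h (0.01).

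Leaving out each array in turn gave 0 to 2 called members in each of 24h vs 0h, 24h vs DMSO and 24h vs 8h, and 0 in the other comparisons. Zic2 ranged from -4.62 to -3.18 in 24h vs 0h (called in 12 of 16 fits), from -5.21 to -3.55 in 24h vs DMSO (10 of 16) and from -5.57 to -4.13 in 24h vs 8h (13 of 16). Zic5 ranged from -4.41 to -1.51 (14 of 16), from -5.23 to -2.33 (13 of 16) and from -4.22 to -1.32 (1 of 16) in the same comparisons. Uncalled differences that changed sign were those of Zic1 in 24h vs 8h (-0.23 to 0.04), 24h vs DMSO (-0.51 to 0.03), 30m vs 0h (-0.16 to 0.37), 4h vs 2h (-0.38 to 0.64) and 8h vs DMSO (-0.41 to 0.12). For Zic2 they were 0h vs DMSO (-1.32 to 0.35), 1h vs 0h (-0.21 to 2.69), 30m vs 0h (-0.27 to 1.42), 4h vs 2h (-1.04 to 1.42) and 8h vs DMSO (-0.37 to 1.30). For Zic5 they were 1h vs 0h (-0.03 to 0.83), 30m vs 0h (-0.27 to 0.58), 4h vs 2h (-0.83 to 0.17) and 8h vs 0h (-0.62 to 0.24).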
